A study of Mus musculus with 4 samples.

Results

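A set of 10 genes that mark vascular smooth muscle cells and pericytes were followed in RNA-seq of mouse sympathetic ganglia (SG): *Acta2*, *Actg2*, *Myh11*, *Myl9*, *Tagln*, *Cnn1*, *Lmod1*, *Pdgfrb*, *Notch3* and *Rgs5*. They were chosen by name as genes of these 2 cell types, and the rule used no measured value, although earlier results of these data were known at the time. They are 10 of 17667 genes listed in at least 1 library. All 10 were listed in all 4 libraries. The libraries were made from SG of thoracic levels T1 to T4, taken from male C57BL/6 mice 12 weeks old that had spent 1 day at 5 °C. Of the 4, WT_1 and WT_2, came from wild-type (WT) littermates, 1 library came from TRKC+/- mice and 1 from AdNTF3-Tg mice, and each was a pool of several mice.

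TRKC+/- mice carry 1 inactive allele of *Ntrk3* in every cell, and *Ntrk3* encodes TRKC, the receptor for neurotrophin-3 (NT-3). AdNTF3-Tg mice overexpress NT-3 in fat under the adiponectin promoter, so the transgene is driven in adipocytes. All groups shared the cold exposure, so no difference here is a difference between cold and warmth. The labels do not say which WT library belongs with which mutant, so each mutant library was set against the mean of both WT libraries, and the difference between the WT libraries is given beside it. By the methods of the study each mutant line had WT controls of its own, so that difference can include one between cohorts. Both comparisons therefore share their controls, and neither mutant has a replicate.

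Arteries and arterioles are wrapped in smooth muscle cells, and capillaries in pericytes, which together are called mural cells. Smooth muscle contracts when the regulatory light chain of smooth muscle myosin is phosphorylated and the myosin pulls on actin filaments, which proteins such as transgelin and calponin bind. Endothelial cells recruit mural cells with platelet-derived growth factor and hold them in a mature state through Notch signals, and many contractile genes are transcribed by serum response factor (SRF) with cofactors of the myocardin family, at a DNA element called the CArG box.

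The promoters of *Acta2*, *Myl9* and *Rgs5* are shown because the first and second hold CArG boxes next to the start of abundant contractile genes, whereas the third, of an abundant pericyte gene, holds none. They were thus picked on the outcome of the search, and the contractile genes *Cnn1* and *Lmod1* held none either. Each sequence is the 250 bases before the transcript start in RefSeq, 5′ to 3′ on the strand of the gene, on the build GRCm38.p6. Capitals mark matches to the CArG box, searched on both strands as CC, 6 core bases and GG, with at most 1 G or C among the core bases.
Acta2 (chr19:34255374-34255623, minus strand): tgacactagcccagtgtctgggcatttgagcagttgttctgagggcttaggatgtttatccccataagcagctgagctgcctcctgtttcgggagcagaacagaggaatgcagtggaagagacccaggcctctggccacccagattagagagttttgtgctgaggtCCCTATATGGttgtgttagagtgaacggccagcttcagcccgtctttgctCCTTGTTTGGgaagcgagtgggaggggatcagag
Myl9 (chr2:156775214-156775463, plus strand): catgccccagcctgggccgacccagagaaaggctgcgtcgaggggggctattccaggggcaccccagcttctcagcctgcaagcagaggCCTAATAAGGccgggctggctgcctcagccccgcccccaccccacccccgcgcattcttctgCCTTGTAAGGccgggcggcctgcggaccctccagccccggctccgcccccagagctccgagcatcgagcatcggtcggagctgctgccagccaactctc
Rgs5 (chr1:169655251-169655500, plus strand): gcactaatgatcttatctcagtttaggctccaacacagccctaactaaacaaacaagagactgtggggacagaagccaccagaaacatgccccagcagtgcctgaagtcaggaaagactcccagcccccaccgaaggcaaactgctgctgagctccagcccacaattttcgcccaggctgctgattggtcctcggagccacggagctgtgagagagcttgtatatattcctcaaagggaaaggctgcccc

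In *Acta2* the boxes CCCTATATGG and CCTTGTTTGG lay 84 to 75 and 34 to 25 bases before the start, each with 1 G or C in its core. *Myl9* held CCTAATAAGG, with a core of A and T alone, 161 to 152 bases before the start, and CCTTGTAAGG, with 1 G or C, 99 to 90 bases before it. The start is that of 1 RefSeq transcript, and genes can have others further upstream, so most of the *Acta2* window, with both boxes, and the near end of the *Myl9* window lie inside the gene spans given further on. The windows of *Rgs5*, *Notch3*, *Cnn1* and *Lmod1* held no match. RefSeq windows were at hand for 6 of the 10 genes, and *Tagln*, *Myh11*, *Actg2* and *Pdgfrb* were not among them. Of all 32851 mouse promoter windows of this length, 1.47% held a box with a core of A and T alone, 8.59% held a box with at most 1 G or C, and 0.670% held 2 or more of these. These matches are letters in a window and say nothing of binding in SG.

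The libraries held between 8665955 and 8894985 reads on genes. The neuronal identity of the tissue was plain, with *Th*, which encodes the rate-limiting enzyme of catecholamine synthesis, at 2576 to 2753 FPKM, and *Dbh*, which makes noradrenaline, at 2100 to 2170 FPKM. FPKM scales the reads on a gene to its length and to the depth of the library, so that levels can be compared between genes. *Ntrk3* had 2.45 FPKM in WT_1, 2.52 in WT_2, 2.72 in the library labelled TRKC+/- and 2.32 in AdNTF3-Tg, so the library labelled TRKC+/- was not lower for the targeted gene (78, 83, 91 and 76 reads, log2 fold change over the WT mean 0.13, 95% counting interval -0.23 to 0.53). The label is used below as given. Values of *Ntrk3* cannot tell whether the inactive allele still makes a transcript. *Ntf3*, which encodes NT-3, was listed with 2 reads in the library labelled TRKC+/- alone, under the limit of 3 reads (0.337 to 0.346 CPM) that a count of 0 allows.

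The 10 genes together held 2239 reads in WT_1, 1854 in WT_2, 2131 in the library labelled TRKC+/- and 1895 in AdNTF3-Tg, or 0.0258%, 0.0210%, 0.0240% and 0.0215% of the reads on genes. Their summed level was 144 FPKM in WT_1, 113 in WT_2, 132 in the library labelled TRKC+/- and 115 in AdNTF3-Tg, a range of 1.28-fold that was set at both ends by the WT libraries. In bulk tissue such as this, fewer mural cells and less RNA per mural cell cannot be told apart.

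By mean level over the 4 libraries the order was *Tagln* (62.7 FPKM), *Myl9* (25.9), *Rgs5* (15.7), *Acta2* (13.4), *Pdgfrb* (3.59), *Myh11* (1.78), *Notch3* (1.73), *Actg2* (0.530), *Lmod1* (0.413) and *Cnn1* (0.250). *Tagln* alone made up 47.9% to 51.2% of the summed level. The ranges over libraries of *Rgs5* and *Acta2* overlapped, as did those of *Myh11* and *Notch3* and those of *Actg2* and *Lmod1*, so their order is not settled. Every other neighbouring pair kept its order with no overlap, although *Cnn1* rests on 3 to 5 reads per library.

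**Figure D1:**
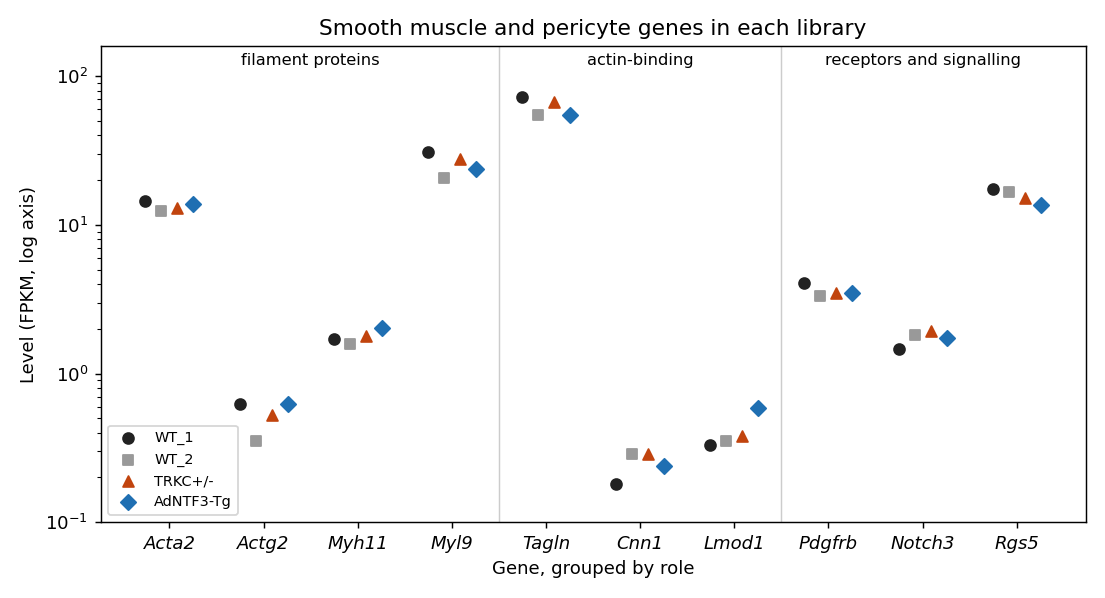
Level of each gene in each library, in FPKM on a log axis, with genes grouped by role and 1 point for each of the 4 libraries. Differences between genes, from 0.250 FPKM for *Cnn1* to 62.7 for *Tagln*, are far wider than those between libraries.

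For the fold changes, 0.1 FPKM was added to each value and the log2 ratio of a mutant library to the WT mean was taken. A gene was past the cutoff where this value was 0.5 or more in size, in either direction. The range in brackets after each value is a 95% interval of the reads ratio by the exact Clopper-Pearson method, and covers counting error only, not the spread between animals or pools. In the library labelled TRKC+/- 0 of the 10 genes were past the cutoff, beside 8.56% of the 15275 genes listed in all 4 libraries (3.48% higher and 5.09% lower). In AdNTF3-Tg 1 gene was past it, *Lmod1*, which was higher, beside 11.0% of all genes (4.01% higher and 6.95% lower). Between the WT libraries 2 genes were past it, *Myl9* and *Actg2*, both lower in WT_2 than in WT_1, beside 13.4% of all genes (5.67% higher and 7.71% lower). With AdNTF3-Tg set against WT_2 alone the count was also 2, *Actg2* and *Lmod1*, beside 13.3% of all genes. All of these counts are too small to set apart from the share of all genes.

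The filament proteins are the actins and myosins that make up the contractile apparatus. *Acta2* (Entrez 11475, chr19:34240336-34255585 on GRCm38.p6) encodes smooth muscle alpha-actin, the most used marker of vascular smooth muscle. It had 14.38 FPKM in WT_1 (315 reads), 12.35 in WT_2 (274 reads), 13.05 in the library labelled TRKC+/- (292 reads) and 13.82 in AdNTF3-Tg (305 reads). Both mutant values fell between the WT values, whose mean was 13.4 ± 1.44 FPKM (SD, n = 2). The log2 fold change was -0.03 (-0.24 to 0.17) in the library labelled TRKC+/- and 0.05 (-0.16 to 0.24) in AdNTF3-Tg, against -0.22 (-0.47 to 0.01) for WT_2 over WT_1. For this gene the counting intervals of both mutant comparisons lay within the cutoff on either side, so a change of 0.5 would have been visible over counting error.

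*Myl9* (Entrez 98932, chr2:156775408-156781657) encodes the regulatory light chain of smooth muscle myosin and holds the box with an unbroken A and T core shown above. Its level was 31.13 FPKM in WT_1 (279 reads), 20.7 in WT_2 (186 reads), 27.89 in the library labelled TRKC+/- (254 reads) and 23.72 in AdNTF3-Tg (212 reads). Here too both mutant libraries lay between the WT libraries, which differed by -0.59 on the log2 scale (-0.89 to -0.34, WT_2 over WT_1). Past the cutoff with an interval that excluded 0, *Myl9* between the WT libraries was the only such case among the 10 genes in the 3 comparisons, and 5.15% of all genes met both criteria there (2.64% in the library labelled TRKC+/- and 4.48% in AdNTF3-Tg). Over the WT mean of 25.9 ± 7.38 FPKM (SD, n = 2) the log2 fold change was 0.11 (-0.12 to 0.33) in the library labelled TRKC+/- and -0.13 (-0.38 to 0.10) in AdNTF3-Tg. The choice of WT library decides its direction in both mutants. In the library labelled TRKC+/- it was -0.16 (-0.42 to 0.08) over WT_1 and 0.43 (0.16 to 0.72) over WT_2, and in AdNTF3-Tg -0.39 (-0.68 to -0.16) over WT_1 and 0.20 (-0.10 to 0.49) over WT_2.

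*Myh11* (Entrez 17880, chr16:14194527-14292188), the heavy chain of smooth muscle myosin and the marker most restricted to smooth muscle, was at 1.71 FPKM in WT_1 (97 reads), 1.57 in WT_2 (91 reads), 1.79 in the library labelled TRKC+/- (104 reads) and 2.03 in AdNTF3-Tg (117 reads). Both mutants lay above both WT libraries. The log2 fold change was 0.12 (-0.24 to 0.48) in the library labelled TRKC+/- and 0.29 (-0.04 to 0.65) in AdNTF3-Tg, and neither interval excluded 0. *Actg2* (Entrez 11468, chr6:83512909-83536251), the gamma-actin of visceral smooth muscle, was near the limit of detection with 7 reads in WT_1, 4 in WT_2, 6 in the library labelled TRKC+/- and 7 in AdNTF3-Tg. The corresponding levels were 0.62, 0.35, 0.53 and 0.62 FPKM, and its intervals ran from -1.62 to 1.66 and from -1.27 to 1.84 around log2 fold changes of 0.11 and 0.30. A change of *Actg2* was not detectable at this depth.

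Among the actin-binding proteins, *Tagln* (Entrez 21345, chr9:45929628-45936058) encodes transgelin, or SM22-alpha, an early marker of smooth muscle that other contractile and stromal cells can also express. Its level was 73.05 FPKM in WT_1 (974 reads), 55.11 in WT_2 (741 reads), 67.61 in the library labelled TRKC+/- (919 reads) and 55.03 in AdNTF3-Tg (736 reads). AdNTF3-Tg and WT_2 were level with each other, and the other two libraries lay above them. Over the WT mean of 64.1 ± 12.7 FPKM (SD, n = 2) the log2 fold change in AdNTF3-Tg was -0.22 (-0.36 to -0.10). That interval excluded 0, as it did for 24.8% of all genes, but the gap between the WT libraries was larger, at -0.41 (-0.56 to -0.29). Against WT_2 alone the AdNTF3-Tg value was 0.00 (-0.15 to 0.15), and against WT_1 alone it was -0.41 (-0.57 to -0.29). In the library labelled TRKC+/- the log2 fold change was 0.08 (-0.04 to 0.19).

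*Lmod1* (Entrez 93689, chr1:135324813-135368065) encodes leiomodin-1, which nucleates actin filaments in smooth muscle. It was at 0.33 FPKM in WT_1 (11 reads), 0.35 in WT_2 (12 reads), 0.38 in the library labelled TRKC+/- (13 reads) and 0.59 in AdNTF3-Tg (20 reads). AdNTF3-Tg stood above the other libraries, by at least 0.5 over each WT library, a distance that 5.70% of all genes had from both WT libraries in one direction or the other. In the library labelled TRKC+/- 0 of the 10 genes had it, beside 4.27% of all genes. Its log2 fold change of 0.65 over the WT mean had a counting interval of -0.15 to 1.72, which includes 0. *Cnn1* (Entrez 12797, chr9:22099221-22109221), which encodes calponin, an inhibitor of the myosin ATPase, had 3 reads in WT_1, 5 in WT_2, 5 in the library labelled TRKC+/- and 4 in AdNTF3-Tg (0.18, 0.29, 0.29 and 0.24 FPKM). Intervals of -1.66 to 2.09 and -2.19 to 1.89 left its fold changes of 0.22 and 0.02 without information on a change of moderate size.

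The receptors and signalling genes mark pericytes as well as smooth muscle. *Pdgfrb* (Entrez 18596) encodes the receptor through which platelet-derived growth factor from endothelial cells recruits mural cells. It was at 4.04 FPKM in WT_1 (188 reads), 3.34 in WT_2 (158 reads), 3.5 in the library labelled TRKC+/- (167 reads) and 3.48 in AdNTF3-Tg (164 reads). Both mutant values lay between the WT values. The log2 fold change was -0.07 (-0.35 to 0.20) in the library labelled TRKC+/- and -0.08 (-0.36 to 0.19) in AdNTF3-Tg. *Notch3* (Entrez 18131, chr17:32120820-32166896), the Notch receptor of arterial smooth muscle, had 1.46 FPKM in WT_1 (100 reads), 1.81 in WT_2 (126 reads), 1.92 in the library labelled TRKC+/- (135 reads) and 1.74 in AdNTF3-Tg (121 reads). WT_1 was the lowest library and the other three were close together. Log2 fold changes were 0.22 (-0.08 to 0.55) in the library labelled TRKC+/- and 0.08 (-0.24 to 0.42) in AdNTF3-Tg, beside 0.29 (-0.09 to 0.70) for WT_2 over WT_1.

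*Rgs5* (Entrez 19737, chr1:169655501-169695813), a regulator of G protein signalling and a widely used pericyte marker, was at 17.35 FPKM in WT_1 (265 reads), 16.66 in WT_2 (257 reads), 15.15 in the library labelled TRKC+/- (236 reads) and 13.62 in AdNTF3-Tg (209 reads). The WT libraries were close to each other (17.005 ± 0.488 FPKM, SD, n = 2) and both mutants lay below them. In AdNTF3-Tg the log2 fold change was -0.32, with a counting interval of -0.57 to -0.09 that excluded 0, and it was -0.35 (-0.63 to -0.10) over WT_1 and -0.29 (-0.56 to -0.02) over WT_2. It was -0.17 (-0.40 to 0.06) in the library labelled TRKC+/-. Its intervals against each WT library both lay below 0. Of the 10 genes 1 had both intervals on the same side of 0 in AdNTF3-Tg, beside 10.2% of all genes, and 0 did in the library labelled TRKC+/-, beside 4.46%. *Rgs5* did not reach the cutoff of 0.5.

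**Figure D2:**
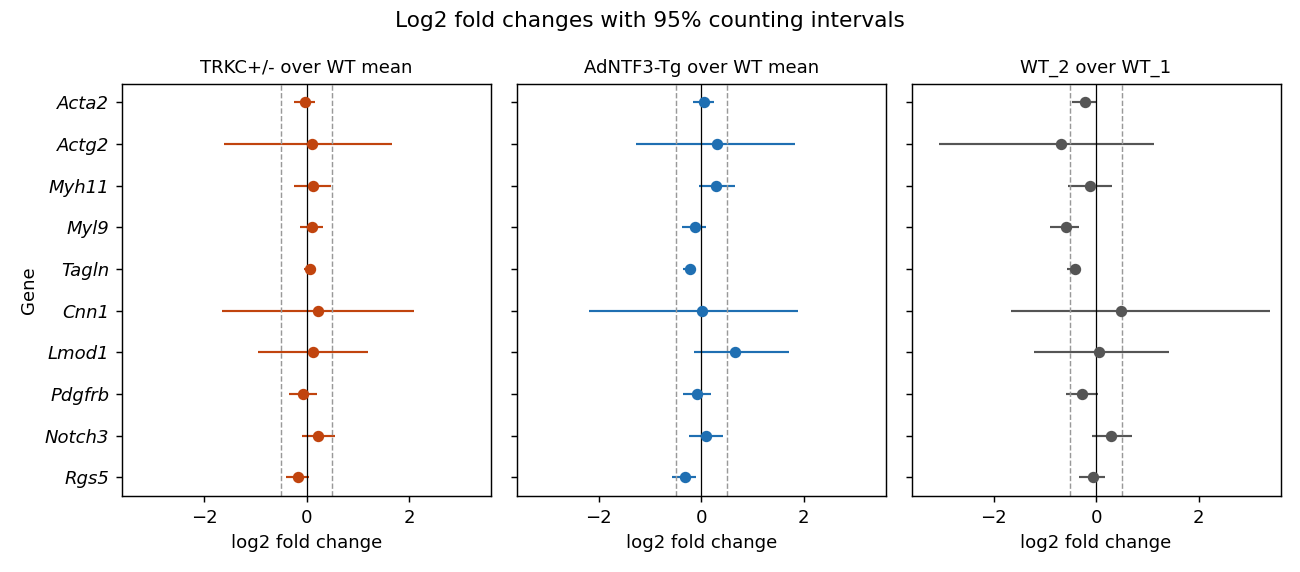
Log2 fold change of each gene (points) with its 95% counting interval (lines) for the library labelled TRKC+/- over the WT mean, AdNTF3-Tg over the WT mean and WT_2 over WT_1, with dashed lines at -0.5 and 0.5. *Lmod1* in AdNTF3-Tg (0.65) and *Actg2* (-0.68) and *Myl9* (-0.59) between the WT libraries lie past the dashed lines, and *Actg2*, *Cnn1* and *Lmod1* have the widest intervals.

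Read by precision, the counting interval lay wholly within the cutoff for 6 genes in the library labelled TRKC+/- (*Acta2*, *Myh11*, *Myl9*, *Tagln*, *Pdgfrb* and *Rgs5*), beside 61.2% of all genes, and for 5 in AdNTF3-Tg (*Acta2*, *Myl9*, *Tagln*, *Pdgfrb* and *Notch3*), beside 57.8%. Between the WT libraries this held for *Acta2* and *Rgs5*, beside 52.7% of all genes. The interval excluded 0 for 0 genes in the library labelled TRKC+/- (16.2% of all genes) and for *Tagln* and *Rgs5* in AdNTF3-Tg. Between the WT libraries it excluded 0 for *Myl9* and *Tagln*, beside 20.5% of all genes. A mutant library lay outside the range of the WT libraries for 4 of the 10 genes each time, *Myh11*, *Lmod1*, *Notch3* and *Rgs5* in the library labelled TRKC+/- (62.6% of all genes) and *Myh11*, *Tagln*, *Lmod1* and *Rgs5* in AdNTF3-Tg (67.6%).

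The median log2 fold change over the 10 genes was 0.11 in the library labelled TRKC+/- and 0.03 in AdNTF3-Tg, and -0.17 for WT_2 over WT_1, where the median over all genes was 0.00, -0.003 and -0.007. These medians depended on the WT library, since without WT_2 they were -0.13 in the library labelled TRKC+/- and -0.03 in AdNTF3-Tg, and without WT_1 0.09 and 0.11. By role, the medians in AdNTF3-Tg were 0.17 for the 4 filament proteins, 0.02 for the 3 actin-binding proteins and -0.08 for the 3 receptors and signalling genes. In the library labelled TRKC+/- they were 0.11, 0.13 and -0.07, and for WT_2 over WT_1 they were -0.40, 0.07 and -0.06. The median of the filament proteins was thus further from 0 between the WT libraries than in either mutant. *Myh11* did not share this, at -0.12 for WT_2 over WT_1, 0.12 in the library labelled TRKC+/- and 0.29 in AdNTF3-Tg. The WT value is a ratio of single libraries and the mutant values are ratios to a mean, so their sizes are not directly comparable. Of the 10 genes, 5 were highest in WT_1 without a tie (*Acta2*, *Myl9*, *Tagln*, *Pdgfrb* and *Rgs5*), beside 25.4% of all genes, and 5 were lowest in WT_2 (*Acta2*, *Actg2*, *Myh11*, *Myl9* and *Pdgfrb*), beside 25.2%.

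A test with replicates was possible only by taking the spread of the 2 WT libraries, with 1 residual degree of freedom, as that of the mutant libraries too. In edgeR's quasi-likelihood test on the expected counts with Benjamini-Hochberg adjustment, *Actg2* and *Cnn1* were below the expression filter and 0 of the other 8 genes passed an adjusted p of 0.05 in either mutant. Adjusted p was 0.999 for each in the library labelled TRKC+/- and 0.817 to 0.961 in AdNTF3-Tg, with the lowest unadjusted values for *Rgs5* (0.298 and 0.0716). At an unadjusted p under 0.05 the count was again 0 of 8 in both, beside 1.93% and 5.88% of the 14156 genes tested, and DESeq2 gave 0 at both thresholds (unadjusted, 0.155% and 0.438% of all genes). Among all genes the adjusted test called 1 in the library labelled TRKC+/- (0.00706%), *Ucp1* of brown adipocytes, and 0 in AdNTF3-Tg, whereas DESeq2 called 2 (0.0141%) and 0.

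**Figure D3:**
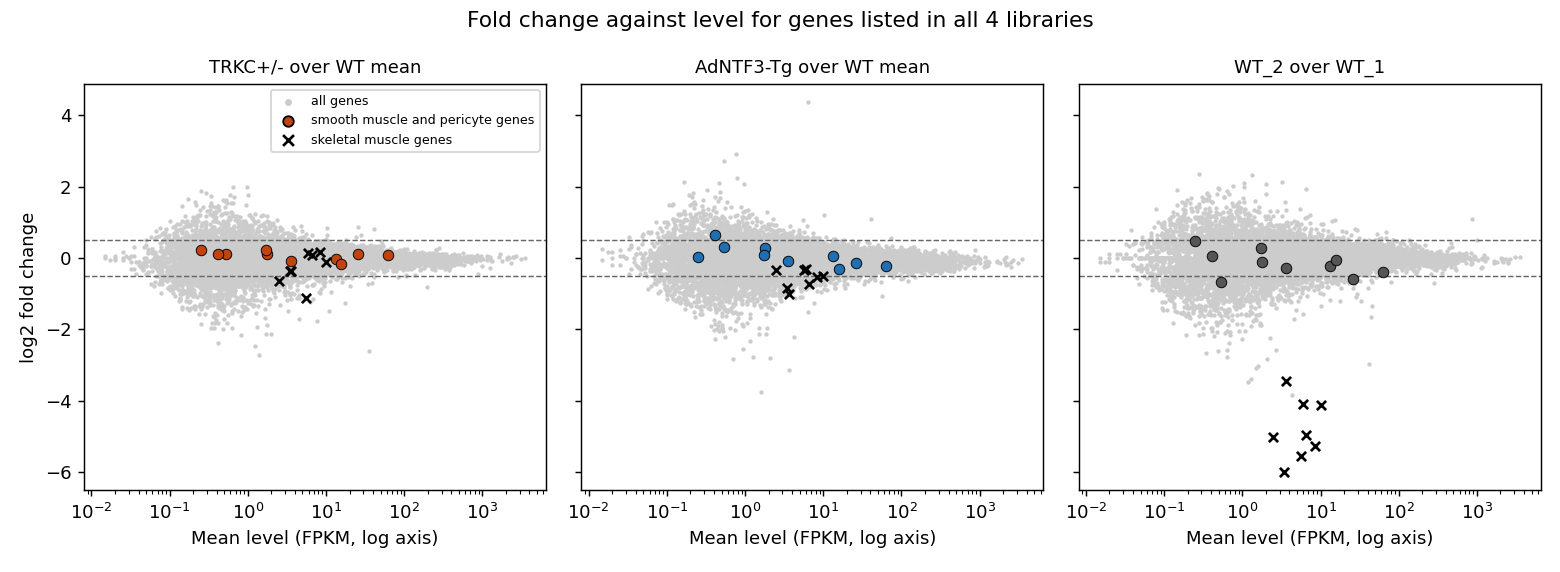
Log2 fold change against mean level (FPKM, log axis) for the genes listed in all 4 libraries (grey), with the 10 smooth muscle and pericyte genes as filled circles and 8 skeletal muscle genes as crosses, in the 3 comparisons. The 10 genes sit inside the grey cloud in each panel, whereas the skeletal muscle genes lie between -6.00 and -3.45 for WT_2 over WT_1.

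The genes differed in how far their 4 values spread beyond counting error. An index of spread was taken as the chi-square of the reads over the 4 library totals divided by its 3 degrees of freedom, so that 1 is counting error alone. It grows with the number of reads, so it does not rank genes by the size of their differences. It was 19.1 for *Tagln*, whose highest level was 1.33 times its lowest, and 8.02 for *Myl9*, where that ratio was 1.504. Of the 14446 genes with at least 20 reads 2.33% and 8.47% were higher. *Rgs5* followed at 2.87. The other 7 genes were between 0.20 and 1.52, under the median of all genes of 1.89, with *Acta2* at 1.40 and *Pdgfrb* at 1.29. *Actg2*, *Cnn1* and *Lmod1* had ratios of 1.77, 1.61 and 1.79 from few reads. As a ratio of levels, *Tagln* over *Acta2* was 5.08 in WT_1, 4.46 in WT_2, 5.18 in the library labelled TRKC+/- and 3.98 in AdNTF3-Tg. *Myl9* over *Acta2* was 2.16 in WT_1, 1.68 in WT_2, 2.14 in the library labelled TRKC+/- and 1.72 in AdNTF3-Tg, so that both ratios were higher in WT_1 and the library labelled TRKC+/- than in WT_2 and AdNTF3-Tg.

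Genes of other cell types also differed between the libraries, and their summed levels are given beside the 10 genes. Skeletal muscle genes (8 of 8 listed) summed to 99.9 FPKM in WT_1, 3.37 in WT_2, 46.0 in the library labelled TRKC+/- and 35.3 in AdNTF3-Tg, a 29.6-fold range, and all 8 were highest in WT_1 and lowest in WT_2. Blood genes (4 of 5 listed, *Hbb-bt* in no library) summed to 172 FPKM in WT_1, 65.2 in WT_2, 146 in the library labelled TRKC+/- and 88.0 in AdNTF3-Tg. With the libraries in that sequence, fibroblast genes (6 of 6) summed to 324, 248, 301 and 280 FPKM and glial genes (6 of 6) to 741, 556, 705 and 665 FPKM. All of these sums were highest in WT_1 and lowest in WT_2, as were the sum of the 10 genes and *Myl9*. Gene by gene, however, 1 of 6 fibroblast genes, 2 of 6 glial genes and 2 of 4 blood genes were highest in WT_1, and 6, 5 and 3 were lowest in WT_2. Without the most abundant gene of each list (*Dcn* and *Fabp7*) the fibroblast and glial sums were highest in the library labelled TRKC+/-, at 135 and 419 FPKM, and still lowest in WT_2, at 102 and 345 FPKM. Endothelial genes (7 of 7) summed to 71.5, 74.7, 74.6 and 69.7 FPKM, and the 10 genes over this sum gave 2.02, 1.51, 1.77 and 1.65. Both rest on *Egfl7*, the most abundant gene of the list. Without it the endothelial sum was 36.3 FPKM in WT_1, 32.6 in WT_2, 37.5 in the library labelled TRKC+/- and 31.5 in AdNTF3-Tg, and the 10 genes over it gave 3.97, 3.45, 3.52 and 3.65. The part of skeletal muscle, blood, fibroblasts or glia in the differences of *Myl9* and *Tagln* was not tested.

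Adipocyte genes (5 of 5) summed to 366 FPKM in WT_1, 332 in WT_2, 200 in the library labelled TRKC+/- and 269 in AdNTF3-Tg, and macrophage genes (5 of 5) to 39.5, 33.8, 36.9 and 33.6 FPKM. *Ucp1*, the uncoupling protein of brown fat, was at 47.33, 48.14, 7.8 and 37.81 FPKM. Sympathetic neuron genes (6 of 6) stayed between 7582 and 8253 FPKM in sum.

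**Figure D4:**
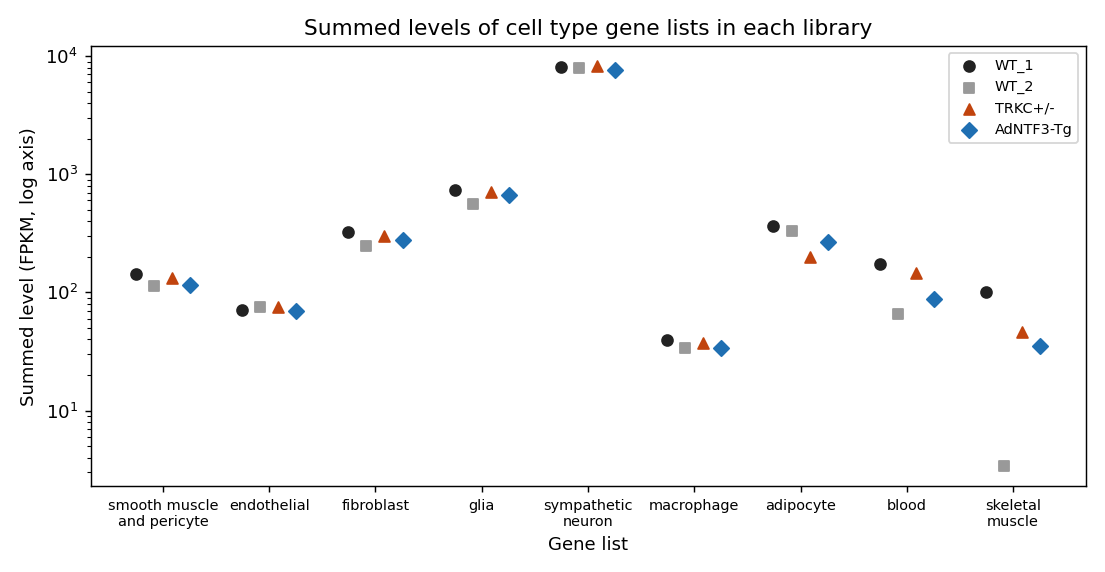
Summed level of each cell type's genes in each library, in FPKM on a log axis, with 1 point per library. The smooth muscle and pericyte sum runs from 113 to 144 FPKM, whereas the skeletal muscle sum runs from 3.37 to 99.9 FPKM with WT_2 lowest.

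The wider set of smooth muscle contraction genes held 23 genes, of which 21 were listed in all 4 libraries. In the library labelled TRKC+/- 0 were higher past the cutoff and 1 lower, *Prkg1*, with a median of -0.01 (3.48% and 5.09% of all genes), and in AdNTF3-Tg 0 were higher and 2 lower, *Des* and *Ppp1r14a*, with a median of -0.02 (4.01% and 6.95% of all genes). Between the WT libraries 3 were higher and 2 lower in WT_2 (5.67% and 7.71% of all genes), *Des* among the lower and *Prkg1* and *Ppp1r14a* among the higher. *Prkg1* and *Des* are named here after their values were seen. *Tagln2*, a relative of transgelin that is widely expressed, was at 321 to 343 FPKM, and *Csrp1*, a LIM protein of smooth muscle and other cells, at 274 to 315 FPKM, both far above the 62.7 FPKM of *Tagln*. *Ppp1r14a*, which encodes the myosin phosphatase inhibitor CPI-17, was at 2.16 FPKM in WT_1 (9 reads), 3.42 in WT_2 (14), 2.39 in the library labelled TRKC+/- (10) and 1.47 in AdNTF3-Tg (6), at least 0.5 below each WT library in AdNTF3-Tg but with an interval of -2.53 to 0.39 around -0.88.

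Of 7 genes of SRF and myocardin transcription, *Myocd*, the smooth muscle cofactor itself, was listed in no library and *Gata6* with 1 read in each of 2 libraries. *Srf* was at 6.78 FPKM in WT_1, 7.04 in WT_2, 7.29 in the library labelled TRKC+/- and 7.55 in AdNTF3-Tg. *Tead1*, another factor of contractile genes, was at 7.47, 7.92, 7.49 and 8.99 FPKM. For the 5 genes listed in all libraries 0 were past the cutoff in any of the 3 comparisons (8.56%, 11.0% and 13.4% of all genes).

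Among 18 further pericyte and mural cell genes, 5 were higher and 0 lower past the cutoff in the library labelled TRKC+/- (median 0.07, beside 3.48% of all genes higher and 5.09% lower), 2 higher and 1 lower in AdNTF3-Tg (median 0.02, beside 4.01% higher and 6.95% lower) and 2 higher and 5 lower for WT_2 over WT_1 (median -0.12, beside 5.67% and 7.71%). The 5 higher in the library labelled TRKC+/- were *Anpep*, *Cox4i2*, *Kcnj8*, *Ndufa4l2* and *Foxs1*, the last 3 named after their values were seen. Those in AdNTF3-Tg were *Foxs1* and *Tbx18*, higher, and *Vtn*, lower. For WT_2 over WT_1 *Higd1b* and *Tbx18* were higher, and *Kcnj8*, *Vtn*, *Ndufa4l2*, *Foxs1* and *Aoc3* lower. *Tbx18*, *Vtn*, *Higd1b* and *Aoc3* are also named after their values were seen. *Kcnj8* was at 1.08 FPKM in WT_1 (20 reads), 0.37 in WT_2 (7), 1.32 in the library labelled TRKC+/- (25) and 0.7 in AdNTF3-Tg (13). *Ndufa4l2* was at 2.09 (17 reads), 0.86 (7), 2.55 (21) and 1.11 FPKM (9). In the library labelled TRKC+/- both were within 0.5 of WT_1 and above WT_2, on few reads. Their log2 fold changes there were 0.78 (0.02 to 1.71) and 0.75 (-0.13 to 1.69). *Foxs1* was at 0.82 FPKM in WT_1 (9 reads), 0.09 in WT_2 (1), 1.8 in the library labelled TRKC+/- (20) and 1.28 in AdNTF3-Tg (14), so that both mutants stood above each WT library by at least 0.5. In the same sequence *Tbx18* was at 0.12 (5 reads), 0.24 (10), 0.19 (8) and 0.52 FPKM (21). Its log2 fold change in AdNTF3-Tg was 1.15 (0.45 to 2.54). *Vtn* was at 5.92, 3.4, 4.94 and 2.75 FPKM. Its log2 fold change was -0.74 (-1.31 to -0.26) in AdNTF3-Tg and -0.78 (-1.34 to -0.30) for WT_2 over WT_1. Of the 5, *Anpep*, which encodes aminopeptidase N, was at 1.22 FPKM in WT_1 (36 reads), 1.1 in WT_2 (33), 2.03 in the library labelled TRKC+/- (61) and 1.21 in AdNTF3-Tg (36). *Cox4i2*, a subunit of cytochrome c oxidase, was at 1.36 (8 reads), 1.2 (7), 3.03 (18) and 1.38 FPKM (8). The library labelled TRKC+/- stood above the rest in both. Its log2 fold change was 0.76 (0.28 to 1.32) for *Anpep* and 1.18 (0.17 to 2.33) for *Cox4i2*. In edgeR's quasi-likelihood test with Benjamini-Hochberg adjustment the adjusted p was 0.999 for each, and the unadjusted values were 0.0413 and 0.0765. The most abundant genes of the list, the adhesion molecule gene *Mcam* (414 to 436 FPKM) and *Rgs4* (289 to 332 FPKM), were more than an order of magnitude above *Rgs5*, and the cells that gave these reads were not resolved.

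Of 20 genes of platelet-derived growth factor, Notch and angiopoietin signalling, which include the ligands of *Pdgfrb* and *Notch3*, 0 were past the cutoff in the library labelled TRKC+/- (median 0.02, beside 8.56% of all genes), and 4 were lower in AdNTF3-Tg (median -0.09, beside 6.95% of all genes), *Pdgfc*, *Pdgfd*, *Dll1* and *Heyl*, named after their values were seen. Between the WT libraries 1 was higher and 0 lower in WT_2 (median -0.13, beside 5.67% and 7.71%). This was *Dll1*, at 0.24 FPKM in WT_1, 0.74 in WT_2, 0.56 in the library labelled TRKC+/- and 0.30 in AdNTF3-Tg, so that AdNTF3-Tg was below WT_2 but above WT_1. The other three were lowest in AdNTF3-Tg. *Pdgfd* was at 0.79 FPKM in WT_1 (12 reads), 0.65 in WT_2 (10), 0.58 in the library labelled TRKC+/- (9) and 0.20 in AdNTF3-Tg (3), *Heyl* at 2.26, 2.12, 1.76 and 1.5 FPKM, and *Pdgfc* at 0.96, 0.69, 0.68 and 0.53 FPKM. In AdNTF3-Tg the log2 fold change was -1.45 (-4.27 to -0.15) for *Pdgfd*, -0.52 (-1.004 to -0.117) for *Heyl* and -0.55 (-1.56 to 0.18) for *Pdgfc*. *Pdgfa*, a ligand of the alpha receptor, was at 29.1 to 33.5 FPKM, and *Hey2*, a transcriptional target of Notch, at 23.0 to 24.9 FPKM. In these wider lists edgeR's quasi-likelihood test with Benjamini-Hochberg adjustment called 0 genes in either mutant. At an unadjusted p under 0.05 it gave 2 of the 17 pericyte genes tested in each mutant and 0 in the other 3 lists, beside 1.93% of all genes in the library labelled TRKC+/- and 5.88% in AdNTF3-Tg.

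Near relatives can share reads with the 10 genes. The expected counts of the 10 genes were whole numbers, to the 2 decimals deposited, in all 40 values, beside 92.6% to 93.7% of all expected counts in a library. Reads divided between genes can leave fractions, as they did for *Actb* and *Myl12b*. Whole counts were thus the rule, and they do not show that no reads were shared. Skeletal *Acta1*, the closest relative of *Acta2* in a cell type that varied here, was at 21.09 FPKM in WT_1, 1.12 in WT_2, 10.19 in the library labelled TRKC+/- and 7.79 in AdNTF3-Tg, so *Acta2* over *Acta1* ran from 0.682 in WT_1 to 11.0 in WT_2 while *Acta2* ran from 12.35 to 14.38 FPKM. Cardiac *Actc1* had 4, 1, 1 and 3 reads in WT_1, WT_2, the library labelled TRKC+/- and AdNTF3-Tg. The cytoplasmic actins *Actb* (399 to 468 FPKM) and *Actg1* (1101 to 1204 FPKM), the nonmuscle myosins *Myh9* (47.3 to 56.1) and *Myh10* (26.9 to 30.8), and the light chains *Myl12a* (41.8 to 47.8), *Myl12b* (208 to 242) and *Myl6* (484 to 613) were all above their smooth muscle relatives among the 10 genes. Of the 9 relatives listed in all libraries, 1 was lower past the cutoff in the library labelled TRKC+/- (*Actc1*, beside 5.09% of all genes) and 1 in AdNTF3-Tg (*Acta1*, beside 6.95%). After adjustment edgeR called 0 in either, and at an unadjusted p under 0.05 it gave 0 and 2 of 8, beside 1.93% and 5.88% of all genes. *Lmod2* had 2 reads in WT_1 and 1 in the library labelled TRKC+/-, and *Lmod3* had 2 reads in WT_1.

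The genes whose pattern over the 4 libraries was most like that of 2 of the 10 genes were sought among 9219 genes of at least 5 FPKM, by the root mean square difference of log2 levels after each gene's own mean was removed. For *Acta2* they were *Tox2* (0.0105), *Bahd1* (0.0118) and *Rae1* (0.0120), and for *Pdgfrb* *Mxd4* (0.00411), *Cyth2* (0.00769) and *Gpatch4* (0.0127). Over only 4 libraries 3003 genes lay within 0.1 of *Acta2* and 2197 within 0.1 of *Pdgfrb*, so likeness at this number of libraries singles out no gene.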

How the data were processed

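RNA of T1 to T4 sympathetic ganglia, pooled from several mice per library, was sequenced in 4 libraries. The authors enriched mRNA, filtered single-end reads with SOAPnuke and, by the methods of the study, mapped them to mm9 with HISAT2, whereas the submitters' processing notes name RSEM and mm10. Which applies to the deposited values, and whether counting used strand, is not given in the sources used here, so reads of overlapping or antisense genes could not be separated. Genes carry Entrez identifiers, and for each the authors deposited the expected count, an estimated count of reads that need not be whole, with an FPKM value and a gene length. FPKM was deposited to 2 decimals, which is coarse for genes such as *Cnn1*. Symbols (99.7% of 17667 identifiers), positions and promoters were taken from RefSeq on GRCm38.p6.

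Depth was 8665955 to 8894985 reads on genes, and 92.6% to 93.7% of expected counts were whole numbers to the 2 decimals deposited. A gene without reads is not listed, and fold changes over all genes used the 15275 listed in all 4 libraries. Log2 fold changes are on the log2(FPKM + 0.1) scale, which understates changes of low genes, and the cutoff of 0.5 follows the study's methods. Counting intervals and the limit of 3 reads use the counts, rounded to whole numbers, and cover counting error only. PCR copies cannot be told from separate molecules. edgeR 4.0.16 (filterByExpr, TMM, quasi-likelihood) was fitted to the rounded counts of 3 groups (2, 1 and 1 libraries) and DESeq2 1.42.0 was run as an alternative, in R 4.3.3. The study's methods give each mutant line WT controls of its own, which the labels do not assign, so p-values measure only the spread between the WT libraries, which may be one between cohorts. Figures and intervals used Python 3.11.15 and scipy 1.17.1.

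The 10 genes and all gene lists were chosen with earlier results of these data known. Besides the 10 genes, *Ntrk3* and *Ntf3*, the rule for naming took from each wider list the 2 genes of highest mean FPKM and those of at least 1 FPKM that lay at least 0.5 above or below both WT libraries in a mutant or passed edgeR's test, and all listed relatives. The alternatives were other pseudocounts (1 and 0.01), a filter at 1 FPKM, unlisted genes taken as 0, other scalings, a cutoff of 1 and leaving out each WT library.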

Additional observations from a re-analysis of the deposited data

How the results depend on the processing

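The count of 0 of the 10 genes past the cutoff in the library labelled TRKC+/- held under every alternative run. In AdNTF3-Tg the count of 1 (*Lmod1*) became 0 with a pseudocount of 1, 0 with a filter at a mean of 1 FPKM, which removes this low gene, and 0 at a cutoff of 1, and it was 1 to 2 when a WT library was left out (*Actg2* and *Lmod1* without WT replicate 1). Between the WT libraries the count of 2 became 1 with a pseudocount of 1, 1 with the filter (both times *Myl9*), 0 at a cutoff of 1, and 3 (*Cnn1* added) with a pseudocount of 0.01 and with DESeq2's size factors. Leaving out a WT library moved the median log2 fold change of the 10 genes between -0.13 and 0.087 in the library labelled TRKC+/- (main value 0.11, and -0.13 without WT replicate 2) and between -0.03 and 0.11 in AdNTF3-Tg (main value 0.03). The ratio is then taken to the WT library that remains, and the 10 genes had a median of -0.17 for WT_2 over WT_1. The cause of that gap between the WT libraries was not tested. Of 40 fold changes of single genes with a WT library left out 10 turned in sign, in 7 genes (*Acta2*, *Actg2*, *Myl9*, *Tagln*, *Cnn1*, *Pdgfrb* and *Notch3*), none of them past the cutoff in the comparison concerned, and of 201 under the other alternatives 1 did (*Cnn1* in AdNTF3-Tg, near 0). Over all genes the edgeR test called 1 in the library labelled TRKC+/-, 2 with DESeq2's size factors, 0 without the expression filter and 2 by DESeq2.

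Over all genes the counts past the cutoff of 1308 (TRKC+/-), 1674 (AdNTF3-Tg) and 2044 (WT_2 over WT_1) became 269, 404 and 633 with a pseudocount of 1, 427, 691 and 926 with the filter, 2602, 2996 and 3381 with unlisted genes taken as 0, and 292, 367 and 538 at a cutoff of 1. Without WT replicate 1 the share of these calls that were higher went from 40.6% to 53.2% in the library labelled TRKC+/- and from 36.6% to 46.6% in AdNTF3-Tg. No paired analysis was possible because only the WT libraries carry replicate numbers and each mutant has 1 library. *Cnn1*, *Actg2* and *Lmod1*, at 3 to 20 reads per library, are limited by depth, and leaving out a WT library leaves no residual degree of freedom for a test.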
